A study of Homo sapiens with 21 samples.

Results

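The comparison described here set 2 libraries of HepG2 cells exposed to 1000 µM caffeine (replicates 1 and 2) against 3 libraries exposed to 10 µM (replicates 1, 2 and 3). These are 5 of the 21 libraries of the series. They were chosen because transcripts of the mitochondrial genome took a similar, low share of their counts. HepG2 is an established human hepatocellular carcinoma line that keeps many hepatocyte functions. In the study, cells stood for 24 h in DMEM without serum, with caffeine at 0, 0.01, 0.1, 1, 10, 100 or 1000 µM and 3 biological replicates per dose. Medium without serum was therefore shared by both groups, and both received caffeine, so an effect already complete at 10 µM is not seen in their difference. The cells were harvested with trypsin, and RNA selected on poly(dT) beads was sequenced. The labels do not say whether replicates came from separate cultures, so p-values measure the spread between these libraries. In bulk RNA, fewer cells of a kind and less RNA per cell cannot be told apart.

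Caffeine is a methylxanthine that blocks adenosine receptors and, at high concentration, inhibits cyclic nucleotide phosphodiesterases, which break down cAMP. It also releases calcium through ryanodine receptors and inhibits kinases of the ATM and mTOR family. In liver cells cAMP, through protein kinase A and the factor CREB, favours gluconeogenesis, while insulin holds the FOXO factors out of the nucleus and promotes lipid synthesis through the SREBP factors. The AHR receptor controls CYP1A1, and the factor ATF4 controls genes for amino acid supply when translation initiation is restrained.

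Mitochondrial transcripts took 4.91%, 4.82% and 4.94% of counts in 10 µM replicates 1, 2 and 3, and 4.86% and 4.85% in 1000 µM replicates 1 and 2. Replicate 3 at 1000 µM was left out at 11.75%. Replicate 3 at 1 µM (4.75%) and replicate 2 at 100 µM (4.72%) lay in the same range but had other doses. The next library above that range stood at 9.95%, and the 3 untreated controls at 10.83% to 14.16%. These shares chose the libraries and are given without a test. Within the mitochondrial share the transcripts were not alike. Levels are given as CPM, counts relative to the scaled library total. MT-CO1, a subunit of cytochrome oxidase, stood at 16541, 16390 and 16752 CPM at 10 µM and at 18271 and 18569 at 1000 µM. MT-CO2 stood at 4251, 4036 and 4157 CPM at 10 µM and at 3338 and 3288 at 1000 µM. Set against MT-CO1, the counts of MT-ND4 gave a ratio of 0.442, 0.408 and 0.432 at 10 µM and 0.376 and 0.357 at 1000 µM, against 0.752 in the library left out. So the 5 libraries matched in the total share and less closely in its composition.

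Total counts were 32267312, 36184858 and 32258970 at 10 µM and 37406615 and 27438469 at 1000 µM. Pearson's r of log2 CPM across features was 0.9966 to 0.9977 between libraries of 1 dose and 0.958 to 0.964 between doses. Replicates differed by more than counting noise (chi-square of 3.51 to 10.1 per feature), so each was counted as 1 sample. The liver genes AFP (alpha-fetoprotein, 1904 to 4443 CPM) and ALB (albumin, 6110 to 12196 CPM) were abundant in all 5 libraries. The defining fibroblast genes COL1A2, DCN and LUM, the leukocyte genes PTPRC and CD3E and the bile duct gene KRT7 had no count in any of the 5. Of the 19 markers listed for other cell types, 15 were in the table and 4 passed the filter on low counts. The summed level was 18.2 to 18.5 CPM at 1000 µM against 3.65 to 4.13 at 10 µM for the fibroblast list, which is nearly all PDGFRB. It was 18.5 to 18.8 against 44.3 to 48.3 CPM for the leukocyte list, mainly CD68, a lysosomal protein that many cells make. CD68 held 46 CPM in the third 1000 µM library, within the 10 µM range, and lost its call with it (edgeR adjusted p 0.118). For the cholangiocyte list, mainly SOX9, it was 183 to 185 against 122 to 128 CPM. The endothelial list summed to at most 0.283 CPM. Their part in the results was not tested.

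The 2 doses differed over a large part of the transcriptome. Of 17075 nuclear features tested, 11801 (69.1%) were called at a threshold of 0.05, using edgeR's quasi-likelihood test and Benjamini-Hochberg adjustment. At 1000 µM 5817 (34.1%) were higher and 5984 (35.0%) lower. A change of at least 2-fold with the same threshold was seen for 3746 features (21.9%), of which 1733 (10.1%) were higher and 2013 (11.8%) lower. The CPM of the groups did not overlap for 13642 features (79.9%). The median log2 fold change was -0.01, with quartiles of -0.54 and 0.50. An exact permutation test of 2 libraries against 3 cannot give a 2-sided p below 0.1, so every call rests on the spread that edgeR pools over features. A list with about 1 in 3 of its members called in each direction is therefore near the background. The plot of fold change against level shows the spread of the changes at every level of expression.

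**Figure D1:**
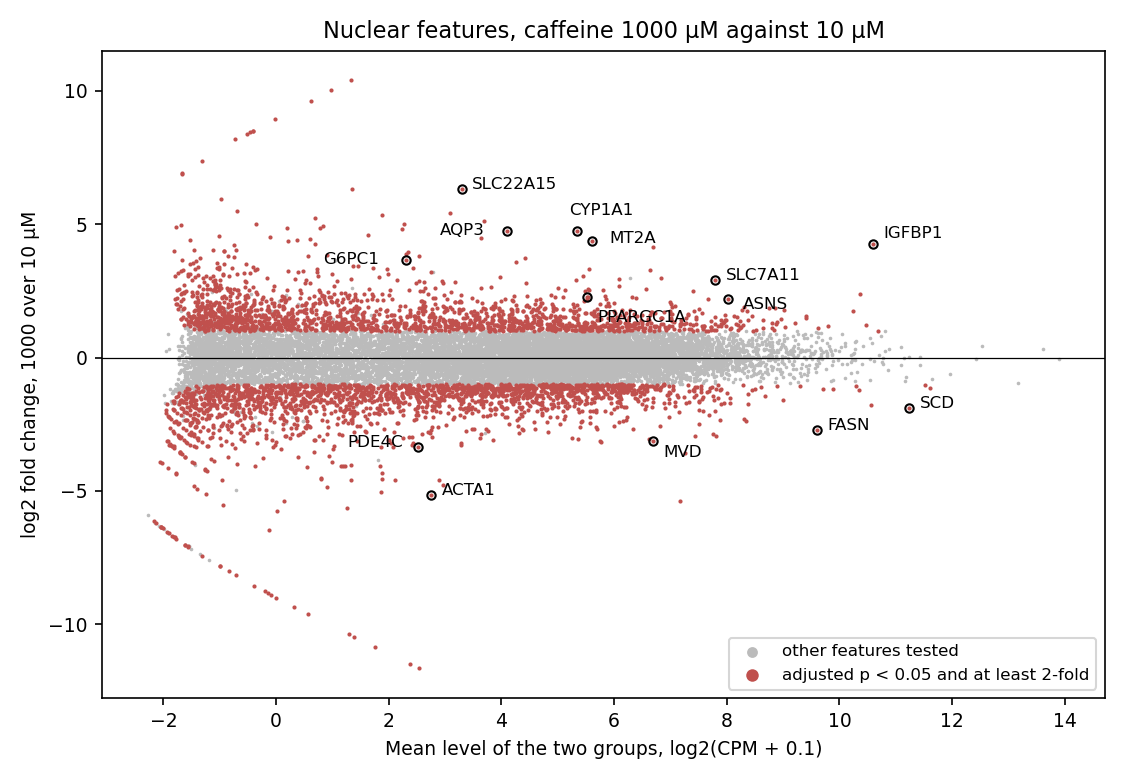
Log2 fold change of 1000 over 10 µM (y axis) against the mean level of the groups as log2(CPM + 0.1) (x axis) for the 17075 nuclear features tested. Red points passed an adjusted p of 0.05 and at least 2-fold, and black rings mark named genes. IGFBP1 rose from a mean of 153.3 to 2931 CPM and MVD fell from 184.2 to 21.58 CPM. The slanted lines of points at the bottom and top are features with no counts in all libraries of 1 dose.

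The 4 genes given as markers of the comparison were all higher at 1000 µM. They were chosen with earlier results of these data known, so this direction is no independent support. IGFBP1 (chr7:45888357-45893668, + strand, GRCh38) encodes a secreted binding protein for insulin-like growth factors that insulin represses. It stood at 141.7, 173.1 and 145.1 CPM at 10 µM and at 2931 and 2932 CPM at 1000 µM. The groups were far apart, 19.1-fold in the means, and the log2 fold change was 4.24 (SE 0.0863, edgeR's quasi-likelihood test, adjusted p 2.29e-10). CYP1A1 (chr15:74719542-74725610, - strand) encodes a cytochrome P450 that oxidises polycyclic aromatic compounds. It stood at 3.03, 3.13 and 2.59 CPM at 10 µM and at 78.6 and 78.3 CPM at 1000 µM, a 26.9-fold difference of means without overlap. Its log2 fold change was 4.72 (SE 0.0795, edgeR adjusted p 1.6e-12).

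G6PC1 (chr17:42900797-42913369, + strand) encodes the catalytic subunit of glucose-6-phosphatase, the last step of glucose output. Its level was low, at 0.786, 0.668 and 0.639 CPM at 10 µM, and reached 9.18 and 8.82 CPM at 1000 µM. The ratio of means was 12.9 and the log2 fold change 3.67 (SE 0.151, edgeR adjusted p 7.66e-10). PPARGC1A (chr4:23755041-23904089, - strand) encodes PGC1 alpha, a coactivator of gluconeogenic and mitochondrial genes. It stood at 16.3, 13.7 and 16.4 CPM at 10 µM and at 75.1 and 77.6 CPM at 1000 µM. The ratio of means was 4.93 and the log2 fold change 2.28 (SE 0.0748, edgeR adjusted p 1.74e-10). In none of the 4 did the groups overlap. The plot of levels by library shows them beside 4 other genes of the comparison.

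**Figure D2:**
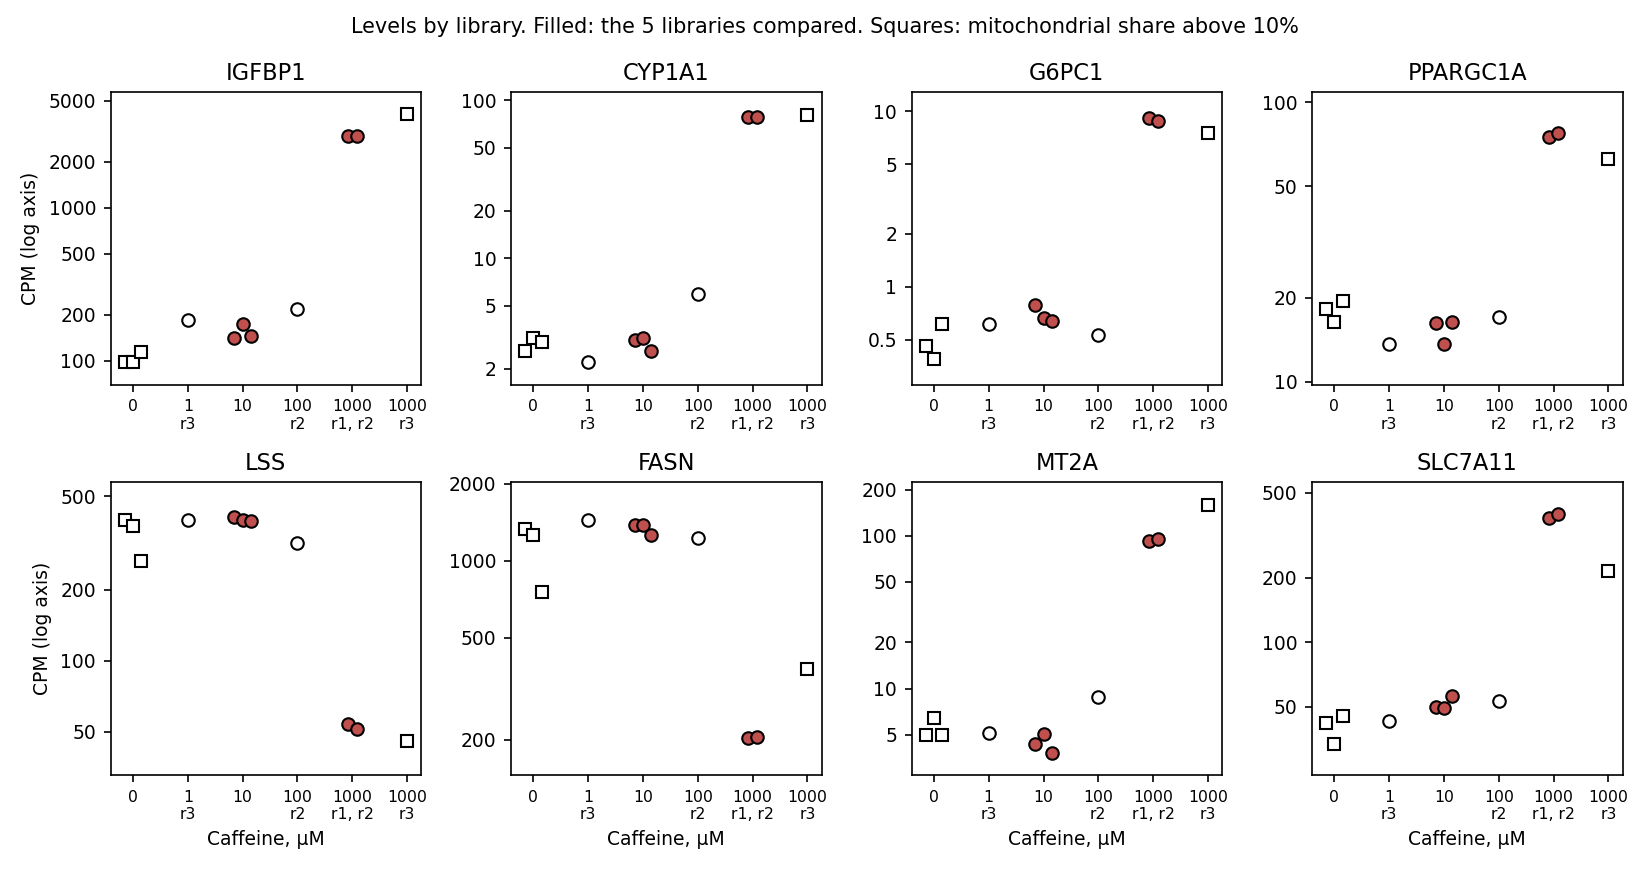
CPM (log axis) of 8 genes by library and caffeine dose in µM; r1, r2 and r3 are replicates. Filled points are the 5 libraries compared, open points are other libraries, and squares mark a mitochondrial share above 10%. Replicate 3 at 1000 µM, with 11.75% of mitochondrial counts, lay on the same side of the 10 µM libraries as replicates 1 and 2 for all 8 genes, and replicate 2 at 100 µM lay near the 10 µM libraries for PPARGC1A and SLC7A11.

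The largest rises included the metallothionein genes MT1E and MT2A, which encode small cysteine-rich proteins that bind zinc and copper. Like MT1X of the same cluster, MT2A (chr16:56608199-56609497, + strand, GENCODE 29) is induced by metals through the factor MTF1, which binds metal response elements near the start site. For MT2A and MT1X the 250 bases before the RefSeq transcription start (GRCh38.p14, both + strand) are printed because of the 6 listed metallothioneins these 2 had a promoter in the table. Capitals mark each match to the core TGCGCNC or TGCACNC on either strand. MT2A spans chr16:56608334-56608583 with 7 matches, and MT1X spans chr16:56682220-56682469 with 4.
MT2A: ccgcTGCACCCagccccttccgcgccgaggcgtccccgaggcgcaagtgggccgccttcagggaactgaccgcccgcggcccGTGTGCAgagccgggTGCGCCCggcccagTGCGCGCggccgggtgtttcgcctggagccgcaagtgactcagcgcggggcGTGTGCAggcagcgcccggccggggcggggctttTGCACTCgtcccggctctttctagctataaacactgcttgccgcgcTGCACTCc
MT1X: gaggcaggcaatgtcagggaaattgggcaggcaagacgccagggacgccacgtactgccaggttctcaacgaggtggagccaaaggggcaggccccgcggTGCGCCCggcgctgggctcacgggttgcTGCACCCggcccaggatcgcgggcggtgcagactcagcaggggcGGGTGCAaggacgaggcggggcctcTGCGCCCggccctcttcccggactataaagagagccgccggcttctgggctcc
At least 1 such match was found in the same window of 28.5% of 27305 genes, and at least 5 in 0.146%. A match of these letters is a description and does not show that the factor was bound.

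All 5 metallothioneins that passed the filter, of 6 listed, were higher at 1000 µM, with a median log2 fold change of 4.38. MT1X, at 0.257 CPM or less at 10 µM, passed only through the 1000 µM libraries, so the filter fixed its direction in this count. MT2A stood at 4.34, 5.01 and 3.81 CPM at 10 µM and at 92.1 and 94.4 CPM at 1000 µM. The groups did not overlap and the log2 fold change was 4.38 (SE 0.0848, edgeR adjusted p 4.75e-12). MT1E rose from 0.874, 0.693 and 0.552 CPM to 25.1 and 24.9 CPM. MT1X rose from 0.204, 0.257 and 0.232 CPM to 5.64 and 5.92 CPM. MT1E was 35.4-fold and MT1X 25-fold higher in the means, while MT1F (log2 fold change 2.08) and MT1G (1.29) rose less. Metallothionein genes are near-identical copies, so how reads were divided among them is uncertain.

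Other genes were among the 12 largest rises at a mean of at least 5 CPM. SLC22A15, an organic ion transporter, stood at 0.175, 0.359 and 0.145 CPM at 10 µM and at 18.9 and 19.6 CPM at 1000 µM, a log2 fold change of 6.33. AQP3, a channel for water and glycerol, rose from 0.874, 1.41 and 1.28 CPM to 31.8 and 33.7 CPM, a log2 fold change of 4.75. SLC16A6, a monocarboxylate transporter, rose from 2.48, 2.93 and 3.37 CPM to 35.7 and 34.8 CPM. All 3 were at or below 3.37 CPM in each 10 µM library. FST, which encodes the activin-binding protein follistatin, rose from 18.7, 18.3 and 18.1 CPM to 177.5 and 181.2 CPM (log2 fold change 3.27, edgeR adjusted p 1.4e-12). PIM1, a serine/threonine kinase, rose from 7.98, 9.17 and 7.85 CPM to 86.5 and 84.1 CPM. TUBE1, which encodes epsilon tubulin, had a log2 fold change of 3.71, and the antisense RNA ZMIZ1-AS1 one of 4.49, with the counting of strand not given in the sources used here.

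ZACN, a ligand-gated ion channel gene, had the second largest log2 fold change among them (5.43) but did not follow the dose in other libraries. It stood at 0.204, 0.385 and 0.523 CPM at 10 µM and at 15.8 and 16.9 CPM in 1000 µM replicates 1 and 2. The third 1000 µM library held 0.58 CPM, and replicate 3 at 1 µM held 18.0 CPM.

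The largest falls were led by features with no count at 1000 µM. The processed pseudogenes NCAPD2P1 and SLC2A3P1 had 1226 and 1087 counts over the 3 libraries at 10 µM and 0 over both at 1000 µM. Set against a floor of 3 counts over the group, NCAPD2P1 was at least 256-fold lower and SLC2A3P1 at least 227-fold lower. Both share sequence with a parent gene. SLC2A3P1 held 7.23 CPM in replicate 3 at 1 µM and 7.48 in replicate 2 at 100 µM, which had a low mitochondrial share, but 0 in replicates 1 and 3 at 100 µM and 1.1, 0 and 0 in the untreated controls, which had a high one. Other libraries with a high share held up to 3.52 CPM, in replicate 2 at 1 µM. The part of that share in the level of SLC2A3P1 was not tested. NCAPD2P1 held 1.49 CPM in the third 1000 µM library and had a log2 fold change of -4.75 with it (edgeR adjusted p 0.00797). MTND2P28, a nuclear copy of a mitochondrial gene, fell from 303.2, 280.1 and 258.1 CPM to 12.3 and 36.5 CPM. Its call was lost with the third 1000 µM library, which held 439.5 CPM (log2 fold change -0.81, edgeR adjusted p 0.579), and with a replicate block (-3.72, adjusted p 0.135). Without 1000 µM replicate 1 it was -2.96 and without replicate 2 -4.54, in place of -3.59. The controls held 634.6 to 984.4 CPM, and the part of the mitochondrial share in the level of MTND2P28 was not tested.

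ACTA1, the actin of skeletal muscle, stood at 13.9, 14.0 and 10.9 CPM at 10 µM and at 0.408 and 0.319 CPM at 1000 µM. TAGLN, an actin-binding protein of smooth muscle and stressed cells, fell from 102.9, 97.9 and 89.1 CPM to 10.7 and 11.8 CPM. ACTA1 fell 35.6-fold and TAGLN 8.58-fold in the means, and the log2 fold change of ACTA1 was -5.13, or -4.54 with the third 1000 µM library. Further large falls were those of LINC03040 (log2 fold change -4.58), the phosphodiesterase PDE4C (-3.37), SYT8 (-3.29), ZNF341 (-3.27), BCAS1 (-3.22) and the adhesion gene NECTIN4 (-3.20). SYT8 reached -4.17 without 1000 µM replicate 1 and -2.69 with an offset for GC content and length.

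Genes of cholesterol synthesis fell together. Of 26 listed, 25 were in the table and passed the filter, and all 25 were lower at 1000 µM by edgeR's quasi-likelihood test, 19 of them at least 2-fold. The median log2 fold change was -2.03, against -0.01 over all features. In liver cells these genes are switched on by SREBP2, which the escort protein SCAP carries to the Golgi when sterols are scarce. SREBF2, the gene of SREBP2, stood at 288.8, 283.7 and 283.0 CPM at 10 µM and at 114.9 and 120.9 CPM at 1000 µM, a log2 fold change of -1.30. SCAP fell less, with a log2 fold change of -0.46. SREBF2 carried the only match to the sterol regulatory element core TCACNCCAC among the 19 listed genes with a promoter in the table. The match lies 133 bases before the start, on chr22:41832952-41833000 (+ strand, GRCh38.p14), and is printed as the classical site through which the factor can act on its own gene.
SREBF2: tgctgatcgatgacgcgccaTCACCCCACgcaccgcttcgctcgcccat
Capitals mark the match, searched on both strands. The same core was present before 1.09% of all genes. No match in the other 18 says only that these letters were not in their 250 bases.

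HMGCS1, which makes HMG-CoA, stood at 267, 270.6 and 290.8 CPM at 10 µM and at 86.8 and 88.8 CPM at 1000 µM, a log2 fold change of -1.67. ACAT2, the first enzyme, had one of -2.35. MVD, which makes isopentenyl diphosphate, fell from 194.5, 192.0 and 166.0 CPM to 21.4 and 21.8 CPM. LSS, which closes the sterol rings, fell from 409.1, 394.4 and 390.7 CPM to 54.2 and 51.6 CPM. None of these genes overlapped between the doses.

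The other enzymes of isoprenoid and squalene formation fell as well, with log2 fold changes of -2.59 for MVK, -2.85 for IDI1, -2.39 for FDPS, -2.30 for FDFT1 and -2.01 for SQLE. After lanosterol, HSD17B7 (-3.03), DHCR7 (-2.96), TM7SF2 (-2.50), NSDHL (-2.21), MSMO1 (-2.03) and EBP (-1.72) fell by more than 1 log2 unit. SC5D (-0.81), CYP51A1 (-0.47) and PMVK (-0.42) fell by less. The untreated controls were set against the 10 µM mean on a log2(CPM + 0.5) scale. They held -0.75, -1.22 and -0.72 for CYP51A1, below 1000 µM replicates 1 and 2 (-0.5 and -0.4). For PMVK they held -0.38, -0.61 and -0.75 against -0.38 and -0.4, and for SC5D 0.3, 0.32 and 0.56. Over the whole list the control medians ran from -0.23 to -0.1. The controls had higher mitochondrial shares, whose part was not tested. STARD4, a sterol carrier, had a log2 fold change of -1.70. With an offset for GC content and length 23 of the 25 were lower, since SCAP (-0.01, edgeR adjusted p 0.765) and PMVK (-0.06, adjusted p 0.465) lost their calls. SCAP also lost its call with the third 1000 µM library (adjusted p 0.105), and PMVK (0.183) and CYP51A1 (0.145) lost theirs by edgeR's quasi-likelihood test in a fit of all 21 libraries.

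Fatty acid and triglyceride synthesis showed the same direction with exceptions. Of 16 genes that passed the filter (17 listed), 14 were lower and 2 higher by edgeR's quasi-likelihood test, with a median log2 fold change of -1.23. FASN, fatty acid synthase, stood at 1379, 1384 and 1266 CPM at 10 µM and at 204.0 and 205.3 CPM at 1000 µM. SCD, which desaturates stearate, fell from 3662, 3712 and 4048 CPM to 1010 and 1077 CPM. FADS2, a desaturase of polyunsaturated fatty acids, fell from 180.4, 173.1 and 174.2 CPM to 21.5 and 21.0 CPM. The means of FASN fell 6.56-fold, of SCD 3.65-fold and of FADS2 8.28-fold, without overlap.

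SREBF1, which encodes the factor that drives them, had a log2 fold change of -1.48. ACLY (-1.37), FADS1 (-1.51), PNPLA3 (-2.55), DGAT1 (-1.25) and DGAT2 (-1.21) fell at least 2-fold. ACACA (-0.57), ACACB (-0.76), ELOVL6 (-0.42) and LPIN1 (-0.59) fell less. MLXIPL, the gene of the carbohydrate-responsive factor ChREBP, had a log2 fold change of -0.32, turned to 0.20 with the GC offset, and lost its call with the third 1000 µM library (edgeR adjusted p 0.768) or without 1000 µM replicate 2 (0.0927). The genes that rose were ACSL3, which activates fatty acids, from 287.8, 296.1 and 303.8 CPM to 616.1 and 614.7 CPM, and GPAM, the first acyltransferase of glycerolipid synthesis, with a log2 fold change of 0.91.

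**Figure D3:**
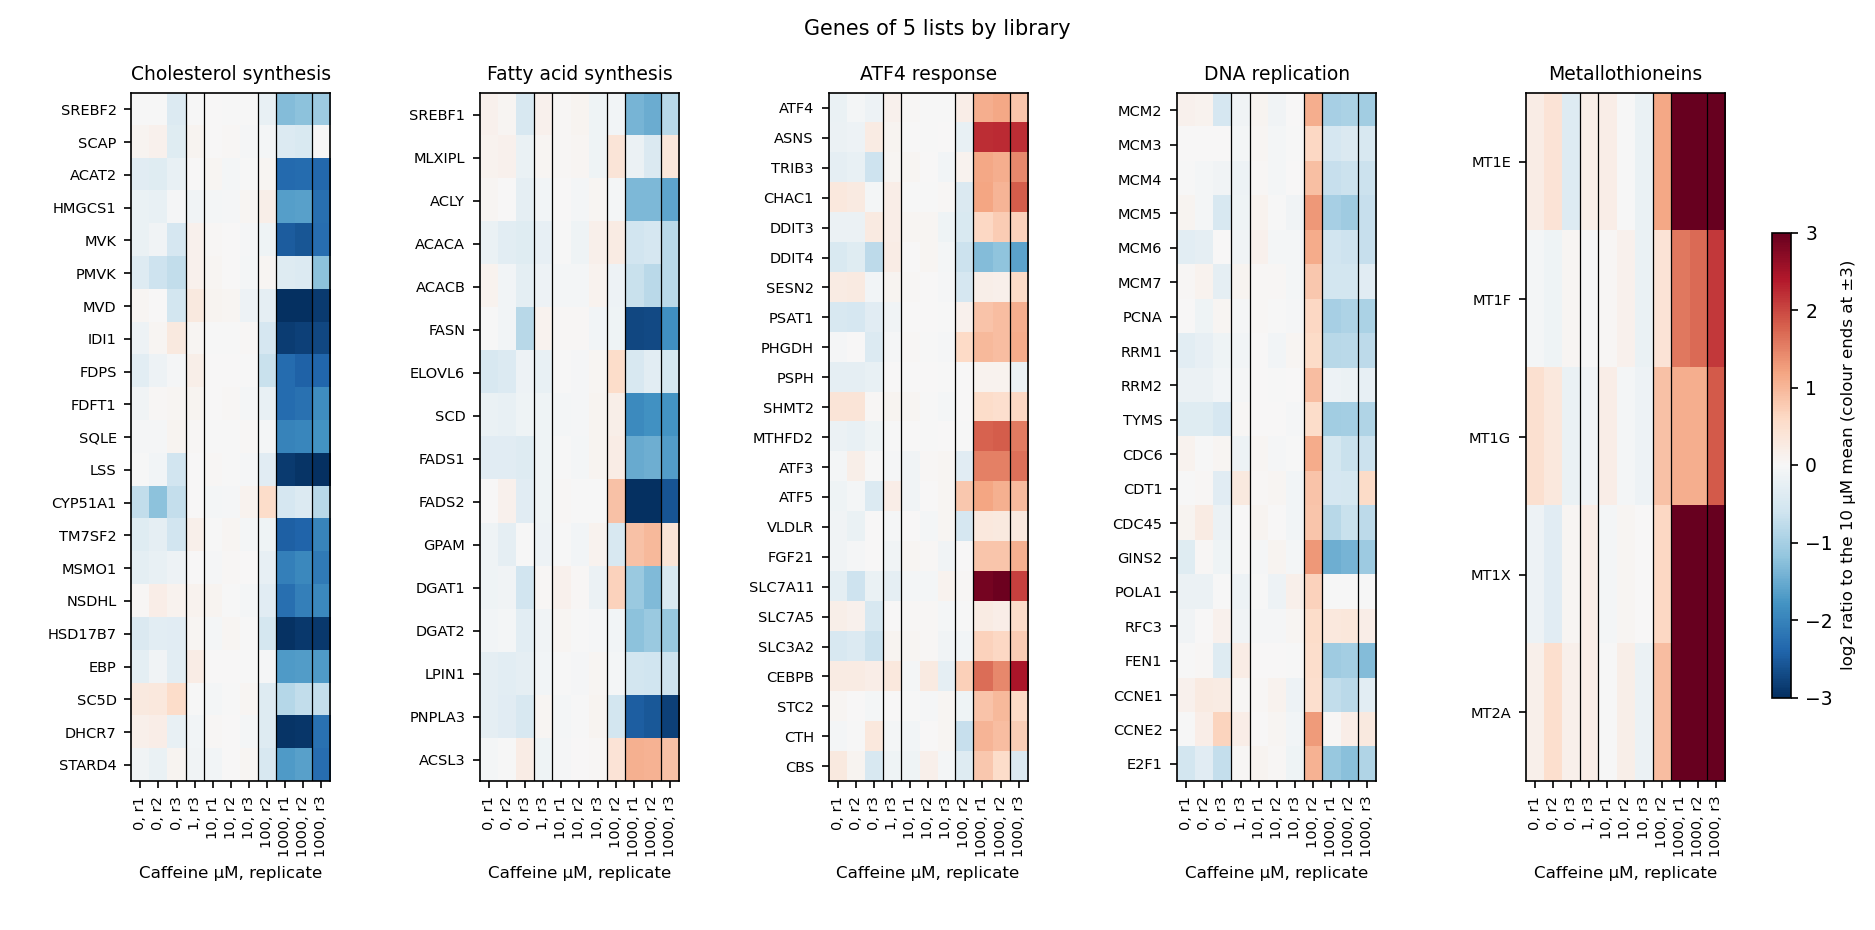
Genes of 5 lists (rows) by library (columns, caffeine in µM and replicate), coloured by the difference in log2(CPM + 0.5) from the 10 µM mean (blue lower, red higher, the colour ends at 3 in either direction). The last 3 columns of each panel are the 1000 µM libraries, of which r3 was not in the comparison. Most cholesterol genes are blue and the 5 metallothioneins red in all 3, while most DNA replication genes are blue there and all are red in replicate 2 at 100 µM.

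The ATF4 amino acid response rose. All 23 listed genes passed the filter, and 21 were higher and 1 lower by edgeR's quasi-likelihood test, with a median log2 fold change of 0.93 and 10 at least 2-fold higher. ATF4 itself stood at 507.7, 488.3 and 485.6 CPM at 10 µM and at 1042 and 1108 CPM at 1000 µM. Its product binds elements with the core TGATGNAA, which was found before 4 of the 20 listed genes with a promoter in the table and before 3.89% of all genes. These 4 stretches are printed, 5′ to 3′ on the gene's strand (RefSeq, GRCh38.p14), with the match on either strand in capitals. They are ASNS at chr7:97872449-97872496 (- strand), CHAC1 at chr15:40953242-40953289, ATF3 at chr1:212565196-212565243 and FGF21 at chr19:48755450-48755497 (the last 3 on the + strand).
ASNS: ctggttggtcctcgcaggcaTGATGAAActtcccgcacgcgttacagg
CHAC1: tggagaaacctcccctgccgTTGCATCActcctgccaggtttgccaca
ATF3: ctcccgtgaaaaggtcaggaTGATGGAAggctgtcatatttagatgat
FGF21: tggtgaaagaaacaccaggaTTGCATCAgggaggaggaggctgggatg
The matches begin 68, 209, 191 and 54 bases before the start, in that order. ASNS and ATF3 hold the core as written, and CHAC1 and FGF21 hold it on the opposite strand.

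All 4 of these genes were higher at 1000 µM, but so were 21 of the 23 listed, so their rise says nothing about the element. ASNS, asparagine synthetase, stood at 92.2, 90.2 and 91.7 CPM at 10 µM and at 423.4 and 433.0 CPM at 1000 µM, a log2 fold change of 2.21. CHAC1, which degrades glutathione, rose from 3.67, 3.65 and 3.78 CPM to 8.98 and 8.01 CPM. ATF3, a stress-induced factor, rose from 3.00, 3.34 and 3.46 CPM to 10.3 and 10.2 CPM. FGF21, a secreted metabolic hormone, had 2, 2 and 0 counts at 10 µM and 18 and 13 at 1000 µM, so its log2 fold change of 3.49 rests on few reads. It passed the filter on low counts only through the 1000 µM libraries. None of the 4 overlapped between the doses.

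SLC7A11, the cystine transporter, stood at 50, 49.1 and 56.0 CPM at 10 µM and at 382.0 and 400.3 CPM at 1000 µM. MTHFD2, a mitochondrial folate enzyme, rose from 232.1, 227.8 and 232.9 CPM to 786.8 and 815.5 CPM. The exception was DDIT4, an inhibitor of mTOR complex 1, which fell from 261.7, 273.1 and 249.1 CPM to 106.5 and 112.8 CPM. PSPH, of serine synthesis, had a log2 fold change of 0.09 and did not pass the test.

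The ER chaperone list did not share this direction. Of 20 genes 7 were higher and 11 lower, with a median log2 fold change of -0.25. With the GC offset 3 were higher and 12 lower, and with the third 1000 µM library 4 and 11. The sensor genes ERN1 (IRE1 alpha, log2 fold change 2.19) and ATF6 (2.01) and the cochaperone gene DNAJB9 (1.63) rose. CRELD2, an ER stress gene, fell from 34.7, 36.4 and 30.9 CPM to 8.24 and 8.33 CPM. Of 8 heat shock genes HSPD1, the mitochondrial chaperonin, was higher (0.39), and DNAJB1 (-1.50), HSP90AA1 (-1.08), HSPA1A (-0.98) and HSPH1 (-0.81) were lower by edgeR's quasi-likelihood test. HSPA1A, which shares reads with its near-identical copy HSPA1B, lost its call with the third 1000 µM library (edgeR adjusted p 0.245). Of the 14 metallothionein and heat shock genes 4 were lower, or 7 without 10 µM replicate 3.

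Targets of cAMP and CREB split. Of 13 genes that passed the filter (16 listed), 4 were higher and 8 lower by edgeR's quasi-likelihood test, with a median log2 fold change of -0.47 (-0.20 with the GC offset). The higher ones were enzymes and a coactivator of gluconeogenesis and amino acid use. Beside G6PC1 and PPARGC1A these were PCK1, which starts gluconeogenesis from oxaloacetate, from 8.39, 8.94 and 8.89 CPM to 20 and 21.3 CPM, and TAT, tyrosine aminotransferase, with a log2 fold change of 0.39. The lower ones included the rapidly induced genes FOSB (-1.93), FOS (-1.14), DUSP1 (-0.93) and JUNB (-0.76). CITED2, a coregulator, fell from 31.6, 38.5 and 29.4 CPM to 10.3 and 10.3 CPM. FOS (adjusted p 0.0835) and FOSB (0.0635) lost their calls by edgeR's quasi-likelihood test when 10 µM replicate 2 was left out, and FOS also without 1000 µM replicate 2 (0.0807). JUNB lost its call with the GC offset (adjusted p 0.086), and PER1 (-0.95) with the third 1000 µM library (0.0825). CREM (-0.47) was lower as well, and SIK1 had a log2 fold change of -0.37 without passing the test.

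Of the FOXO targets 7 were higher and 4 lower among 12 that passed the filter, with a median log2 fold change of 0.53 (0.92 without a filter). IGFBP1, G6PC1, PPARGC1A and PCK1 are also on this list. TRIB1, a pseudokinase that acts on hepatic lipid synthesis, rose from 47.4, 49.3 and 43.7 CPM to 124.6 and 110.5 CPM. TXNIP (0.64), an inhibitor of glucose uptake, and the insulin receptor gene INSR (0.41) rose less. SESN1 (-1.11), SESN3 (-1.09), PIK3IP1 (-1.13) and CCNG2 (-0.26) were lower. CCNG2 lost its call without 1000 µM replicate 1 (edgeR adjusted p 0.067) and in the fit of all 21 libraries (0.0752). BCL6 had a log2 fold change of -0.01.

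Of 13 phosphodiesterase genes that passed the filter (19 listed), 3 were higher and 7 lower by edgeR's quasi-likelihood test, so 10 of 13 were called against 69.1% of all features. The median log2 fold change of -0.34 was -0.19 without 10 µM replicate 2 or with the third 1000 µM library and -0.12 at a mean of at least 5 CPM. PDE4C, which is specific for cAMP, stood at 10.7, 9.17 and 11 CPM at 10 µM and at 1.02 and 0.992 CPM at 1000 µM. PDE6D, a carrier of lipid-modified proteins, had a log2 fold change of -1.36. PDE1A had 9, 12 and 11 counts at 10 µM against 1 and 2 at 1000 µM, a ratio of 6.68 (95% interval 2.09 to 34.1, counting error only). It lost its call without 1000 µM replicate 1 (edgeR adjusted p 0.0597), and its log2 fold change went from -2.66 to -3.40 without replicate 2. PDE8A (0.65) and PDE3B (0.49), which also hydrolyse cAMP, were higher. PDE4D, at 0.18, turned to -0.19 with the GC offset and lost its call when 10 µM replicate 1 (edgeR adjusted p 0.0754), 10 µM replicate 2 (0.107) or 1000 µM replicate 2 (0.25) was left out, and when the third 1000 µM library was added (0.723).

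Of 9 genes of adenosine reception and turnover, 3 were higher and 5 lower, with a median log2 fold change of -0.33. It was -0.15 with the GC offset and 0.03 without a filter, where 10 genes were tested. ADORA2B, the receptor gene called here, stood at 34.7, 34.5 and 33.1 CPM at 10 µM and at 48.3 and 48.9 CPM at 1000 µM. The cell surface enzymes ENTPD1 (1.38) and NT5E (0.58), which together turn ATP into adenosine, were higher. ADA (-0.96) and ADK (-0.33), which remove adenosine, AHCY (-0.63) and the transporters SLC29A2 (-2.12) and SLC29A1 (-0.45) were lower. SLC29A1 lost its call with the third 1000 µM library (edgeR adjusted p 0.119). ADORA1 and ADORA3 did not pass the filter, and ADORA2A, at 0.0255 to 3.54 CPM over the 5 libraries, was not called (edgeR adjusted p 0.872).

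Downstream of cAMP, 8 of 14 genes of protein kinase A and CREB factors were higher and 4 lower, or 5 and 3 in the fit of all 21 libraries. CREB1 rose from 27.0, 26.5 and 29.2 CPM to 60.7 and 66.1 CPM, and its coactivator CRTC3 had a log2 fold change of 1.29. PRKACA, a catalytic subunit of the kinase, fell from 60.5, 57.1 and 57.0 CPM to 30.8 and 30.0 CPM. CRTC2 (-0.86), CRTC1 (-0.76) and CREB3L3 (-0.29) were lower, but all 3 lost their calls with the third 1000 µM library (edgeR adjusted p 0.139, 0.795 and 0.74), where CREB3L3 turned to 0.12. CREB3L3 also turned to 0.10 with the GC offset. Of 11 genes of calcium release from the ER and its refill 5 were higher and 2 lower, near the background, with a median log2 fold change of 0.12 that was -0.08 without 1000 µM replicate 1. ITPR1, an inositol trisphosphate receptor, rose from 40.5, 38.7 and 49.0 CPM to 126.3 and 127.6 CPM. ORAI3 (-0.98) and ORAI1 (-0.48), genes of calcium entry channels, were lower, and ORAI1 lost its call with the third 1000 µM library (edgeR adjusted p 0.669) and with the GC offset (0.938). RYR1 and RYR2 did not pass the filter.

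In the AHR pathway all 9 genes that passed the filter, of 12 listed, were called by edgeR's quasi-likelihood test, against 69.1% of all features. Of the 9 genes 7 were higher and 2 lower, with a median log2 fold change of 0.86 (0.36 at a mean of at least 5 CPM). AHR itself stood at 84.6, 85.2 and 97.1 CPM at 10 µM and at 285.5 and 293.7 CPM at 1000 µM. NQO1, a quinone reductase, rose from 553.6, 527.7 and 550.7 CPM to 1238 and 1242 CPM. ALDH3A1 (0.86), NFE2L2 (0.35) and TIPARP (0.30) rose less, and ARNT (-0.35), the gene of the receptor's partner, fell. UGT1A6 (1.09), at 0.485 CPM or less and with exons shared among UGT1A genes, lost its call without 10 µM replicate 1 (edgeR adjusted p 0.0691), 1000 µM replicate 1 (0.273) or 1000 µM replicate 2 (0.0631). With the GC offset TIPARP (adjusted p 0.0978) lost its call. CYP1A2, CYP1B1 and AHRR did not pass the filter.

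Other drug metabolism genes included 5 higher and 3 lower of 12, so 8 of 12 were called against 69.1% of all features, near the background. CYP2B6 rose from 16, 16.6 and 15.8 CPM to 60.5 and 62.2 CPM. The export pumps ABCB1 (log2 fold change 1.21) and ABCC2 (0.99) and the cytochromes CYP3A5 (0.56) and CYP3A7 (0.25) were higher. SULT2A1, a sulfotransferase, fell from 104.2, 100.8 and 104.3 CPM to 44.0 and 46.7 CPM. UGT2B7 (-0.17) and the reductase POR (-0.26) were lower, and POR turned to 0.19 with the GC offset and lost its call with the third 1000 µM library (edgeR adjusted p 0.849). CYP3A7 lost its call when any of 4 libraries was left out (10 µM replicates 1 and 2, 1000 µM replicates 1 and 2), with edgeR adjusted p-values of 0.0784, 0.12, 0.0747 and 0.178, and UGT2B7 without 1000 µM replicate 1 (0.186).

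Of 21 genes of glycolysis and glucose transport that passed the filter, 16 were lower and 2 higher by edgeR's quasi-likelihood test, with a median log2 fold change of -0.73. With the GC offset 15 were lower and 3 higher. SLC2A1, the GLUT1 transporter, stood at 225.8, 223.2 and 207.8 CPM at 10 µM and at 593.8 and 569.3 CPM at 1000 µM. SLC2A2, the GLUT2 transporter of liver, rose from 52.6, 54.5 and 59.6 CPM to 123.0 and 127.8 CPM. These were the 2 genes called higher, and the lactate transporter gene SLC16A3 (-0.49) was lower. PFKFB4, which makes the activator of phosphofructokinase, fell from 81.7, 80.1 and 79.5 CPM to 13.5 and 16.2 CPM. PKLR, liver pyruvate kinase, fell from 49.6, 55.1 and 50.7 CPM to 10.8 and 11.9 CPM. PFKFB3 (-1.46) and PGAM1 (-1.45) also fell more than 2-fold. Of the glycerol genes beside AQP3, glycerol kinase GK (1.01) was higher, and AQP7 (-0.65), AQP11 (-0.98) and GPD1 (-0.46) were lower.

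Replication and mitosis genes differed in direction. Of 20 DNA replication genes 17 were lower and 1 higher, with a median log2 fold change of -0.75, and 11 of 20 mitosis genes were higher and 4 lower, with a median of 0.38 (0.22 with the GC offset). MCM5, of the replicative helicase, stood at 43.7, 40.3 and 37.7 CPM at 10 µM and at 20 and 19.2 CPM at 1000 µM. GINS2 (-1.58), E2F1 (-1.26) and FEN1 (-1.09) also fell, and RFC3 (0.31) was the gene higher, a call lost with the GC offset (edgeR adjusted p 0.0849). CDK1, the mitotic kinase, rose from 34.7, 38.9 and 35.8 CPM to 78.7 and 84.8 CPM. The kinetochore genes CENPF (0.88) and CENPE (0.79) rose, while CDC20 (-0.71), KIF20A (-0.32), CCNB1 (-0.23) and AURKA (-0.19) were lower. CDC20 (edgeR adjusted p 0.0514), CCNB1 (0.0889) and AURKA (0.199) lost their calls with the third 1000 µM library.

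Of 18 p53 targets 14 were lower and 4 higher, with a median log2 fold change of -0.66. BTG2, an antiproliferative gene, fell from 15.8, 16.6 and 17.0 CPM to 3.5 and 3.58 CPM. FDXR, a mitochondrial reductase, fell from 141.9, 144.5 and 127.9 CPM to 41.2 and 43.1 CPM, and SPATA18 had a log2 fold change of -1.36. GDF15, a stress cytokine that ATF4 also induces, rose from 178.2, 202.9 and 164.0 CPM to 497.9 and 471.6 CPM. MDM2 (0.58), TNFRSF10B (0.25) and CCNG1 (0.14) were higher, but lost their calls with the third 1000 µM library (edgeR adjusted p 0.423, 0.267 and 0.0697). CCNG1 turned to -0.09 with the GC offset, and lost its call without 10 µM replicate 1 (0.115) or 1000 µM replicate 2 (0.327).

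Host genes of small nucleolar RNAs, whose spliced RNAs are degraded by nonsense-mediated decay, were higher in 9 of 10 cases, with a median log2 fold change of 0.84. ZFAS1 stood at 138.2, 142.6 and 134.0 CPM at 10 µM and at 449.0 and 516.2 CPM at 1000 µM. SNHG1 rose from 61.9, 62.8 and 64.2 CPM to 193.7 and 205.3 CPM, and GAS5 from 119.2, 120.2 and 116.8 CPM to 270.2 and 270.4 CPM. SNHG15 was the exception, with 7, 13 and 11 counts at 10 µM and none at 1000 µM, at least 6.47-fold lower against a floor of 3 counts over the group. Of 10 factors of this decay 3 were higher and 6 lower, with a median log2 fold change of -0.19. With the GC offset 4 were higher and 4 lower (median -0.07), and with the third 1000 µM library 3 and 4 (-0.10). SMG1, a kinase of the ATM family that acts in it, was higher (0.96), as were UPF3A (0.37) and SMG8 (0.29), while SMG6 (-0.49), UPF2 (-0.44) and SMG5 (-0.37) were among the lower ones. SMG5 lost its call with the GC offset (edgeR adjusted p 0.0529). Of 10 genes of the ATM kinase family and the checkpoint, 6 were higher and 3 lower. These counts were 4 and 0 without 1000 µM replicate 1, 4 and 1 without 1000 µM replicate 2, 5 and 1 without 10 µM replicate 2, 5 and 0 with the GC offset, and 2 and 1 with the third 1000 µM library. ATM (0.68) and ATR (0.34) were among the higher ones. ATM and ATR lost their calls with the third 1000 µM library (edgeR adjusted p 0.256 and 0.497), and ATR turned to -0.04 with the GC offset. Of 13 SR splicing factors 11 were higher and 2 lower (median 0.39, and 0.15 with the GC offset), led by SRSF11 (0.85) and SRSF1 (0.83). The lower ones, SRSF9 (-0.20) and SRSF2 (-0.17), lost their calls without 1000 µM replicate 2 (edgeR adjusted p 0.0712 and 0.102), and SRSF2 also without 1000 µM replicate 1 (0.0646) or 10 µM replicate 2 (0.0522).

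Of 18 secreted hepatocyte proteins 12 were lower and 3 higher by edgeR's quasi-likelihood test, with a median log2 fold change of -0.78. With the GC offset 5 were higher, and with the third 1000 µM library 1. ALB stood at 12022, 11865 and 12196 CPM at 10 µM and at 6110 and 6552 CPM at 1000 µM. AFP fell from 4328, 4443 and 4052 CPM to 1904 and 2008 CPM. APOC3, an apolipoprotein of triglyceride-rich particles, fell from 80.8, 87.6 and 75.1 CPM to 21.9 and 19.7 CPM. The fibrinogen gene FGA (-1.68) and the retinol carrier RBP4 (-1.02) also fell, though RBP4 lost its call with the third 1000 µM library (edgeR adjusted p 0.172), which held 450.8 CPM. TTR, transthyretin, rose from 79.5, 81.2 and 79.8 CPM to 132.8 and 142.8 CPM. APOA2 (0.31) and APOB (0.32) were higher but lost their calls with the third 1000 µM library (adjusted p 0.058 and 0.0763), and APOB turned to -0.02 with the GC offset. APOB also lost its call without 10 µM replicate 1 (edgeR adjusted p 0.0916), 1000 µM replicate 1 (0.084) or 1000 µM replicate 2 (0.157).

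Liver transcription factors, clock genes, cytosolic ribosomal protein genes and nuclear respiratory chain genes had medians within the quartiles of all features. NR1H4, the bile acid receptor FXR, rose from 11.7, 11.2 and 11.7 CPM to 23.8 and 24.2 CPM, and ONECUT1 fell from 3.55, 2.98 and 3.89 CPM to 1.28 and 1.28 CPM. HNF4A, at 242.6 to 276.2 CPM, had a log2 fold change of 0.14, a call lost without 10 µM replicate 2 (edgeR adjusted p 0.065), 1000 µM replicate 1 (0.0997) or 1000 µM replicate 2 (0.0992). The median of 12 liver transcription factors was 0.01 and ranged from -0.10 without 1000 µM replicate 1 to 0.06 with the third 1000 µM library. That of 17 clock genes was -0.21 and ranged from -0.36 without 1000 µM replicate 2 to 0.02 with the third 1000 µM library, and it was -0.07 without 1000 µM replicate 1. Among the clock genes PER3 (-1.46), CRY2 (-1.14) and TEF (-1.16) fell. The median of 28 ribosomal protein genes was -0.07 and ranged from -0.14 without 10 µM replicate 3 to 0.10 with the third 1000 µM library. Of these 28 genes 6 were higher and 9 lower, or 6 and 15 without 10 µM replicate 3. With the GC offset 9 were higher and 6 lower, and with the third 1000 µM library 5 and 5. Nuclear respiratory chain genes had a median of -0.19 (-0.11 with the GC offset), and CYC1 (-1.29) and ATP5MC1 (-1.03) fell at least 2-fold. The plot of list members sets these lists beside each other.

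**Figure D4:**
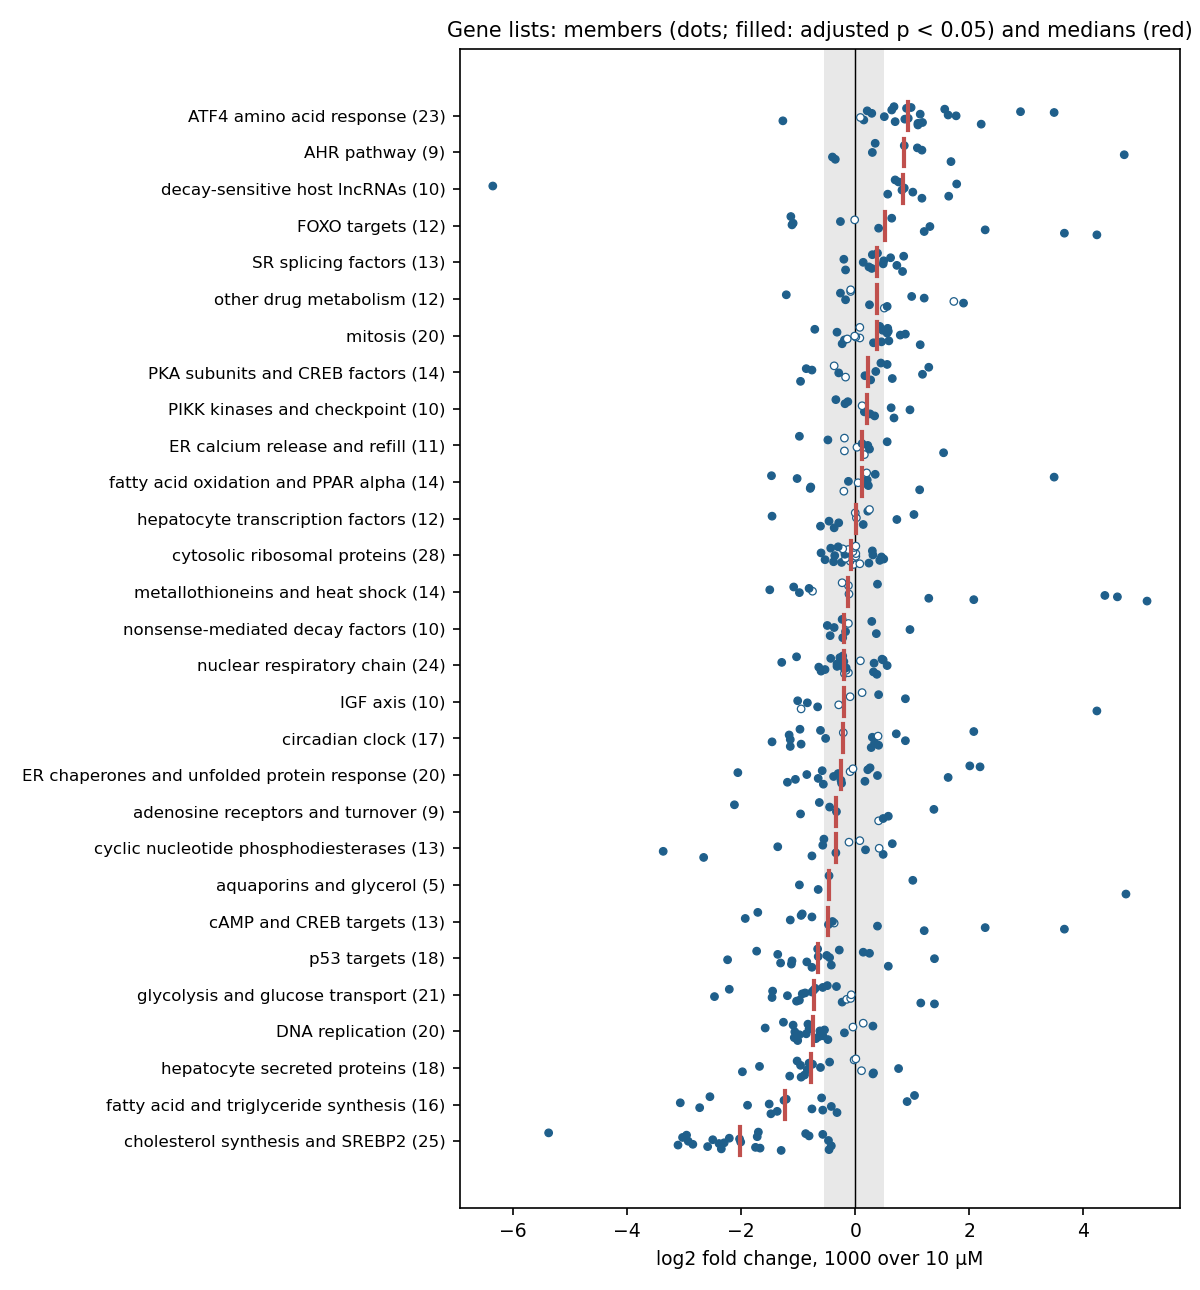
Log2 fold change of 1000 over 10 µM (x axis) for the members of each gene list (rows, number tested in brackets), ordered by median. Dots are genes (the lowest, SNHG15, had no count at 1000 µM, so its position is no bound), filled where the adjusted p was below 0.05, red bars are medians, and the grey band spans the quartiles of all features (-0.54 to 0.50). The medians run from 0.93 for the ATF4 list to -2.03 for cholesterol synthesis, and most lists lie within the grey band.

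Values in libraries outside the comparison are given as a description. In replicate 3 at 1000 µM, 1460 of the 1733 features higher by at least 2-fold (84.2%) and 1826 of the 2013 lower ones (90.7%) lay outside the 10 µM range on the same side. Of all features tested 42.7% lay above that range in this library and 43.9% below it. The features were chosen against the same 10 µM libraries, so these shares are no independent support. Its list medians against the 10 µM mean were -2.13 for cholesterol synthesis, -0.82 for fatty acid synthesis, 0.84 for the ATF4 response and -0.67 for DNA replication, on a log2(CPM + 0.5) scale. In replicates 1 and 2 at 1000 µM the same medians were -2.06 and -1.95, -1.17 and -1.22, 0.86 and 0.93, and -0.72 and -0.67. These medians have the same sign in all 3 libraries at 1000 µM, set against the same 10 µM mean.

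Replicate 2 at 100 µM had a mitochondrial share of 4.72% and is 1 library, so no test was made. Of the features higher by at least 2-fold at 1000 µM, 1263 of 1733 differed there from the 10 µM mean by less than 0.5 of the log2 distance between the doses, in either direction. The same held for 1344 of the 2013 lower ones. The cholesterol list had a median of -0.23 and the ATF4 list one of -0.02. IGFBP1 stood at 216.9 CPM, CYP1A1 at 5.95, MT2A at 8.74 and SLC2A1 at 524.9, each above the highest 10 µM library, while G6PC1 stood at 0.533, below the lowest. All 20 DNA replication genes and all 20 mitosis genes lay above the 10 µM range in this library, with medians of 0.84 and 0.85 over the 10 µM mean. Of all features 38.4% lay above that range there and 37.9% below it. MCM5 held 100.1 CPM there, against at most 43.7 at 10 µM and 20 at 1000 µM.

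The difference between the doses followed the GC content of transcripts. Over the 15500 features with a value (90.8% of those tested), Spearman's rho of the difference with GC content was -0.439. This is across features, which are not independent replicates. The median log2 fold change was 0.35 in the quintile of features with the lowest GC content (27.8% to 41.1%) and -0.59 in the quintile with the highest (58.2% to 75.8%). In the highest quintile 27.5% of features were lower by at least 2-fold, and 3.87% higher. Differences between replicates of 1 dose had rho of 0.033, 0.453 and 0.395 among the 10 µM libraries and 0.232 between those at 1000 µM, and their medians by quintile stayed between -0.076 and 0.121. With an offset for GC content and length, 1302 features were lower by at least 2-fold in place of 2013. The part of library preparation in this pattern was not tested. The list medians with that offset were -2.12 for cholesterol synthesis, -0.88 for fatty acid synthesis, -0.58 for glycolysis and 1.01 for the ATF4 response. The plot of differences by GC content shows the trend between the doses beside those within each dose.

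**Figure D5:**
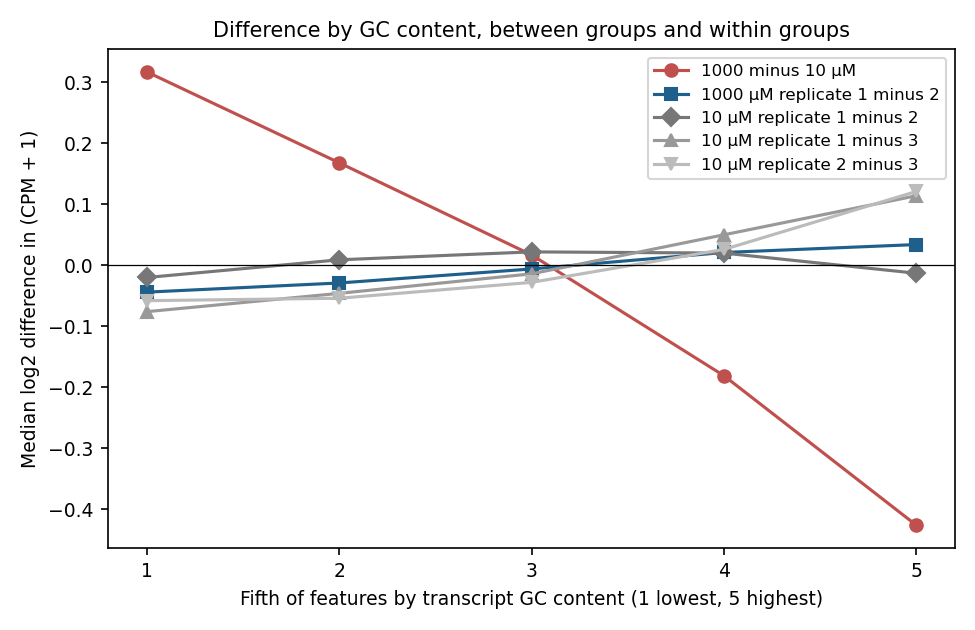
Median log2 difference of CPM + 1 (y axis) in quintiles of features by transcript GC content (x axis, lowest to highest). The red line is 1000 minus 10 µM, and the other lines are differences between replicates of 1 dose. The red line runs from 0.317 to -0.426, while the others stay between -0.076 and 0.121.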

How the data were processed

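The authors deposited 1 table of raw whole-number read counts per feature for 21 libraries. The submitters' processing notes name HISAT2, DESeq2 and GRCh38 without roles or versions, and the counting tool, annotation and use of strand are not given in the sources used here. A further 21 per-sample columns were not used. Samples were grouped by the dose in their titles, and the members, lists and rules were chosen with earlier results of these data known. Features passing filterByExpr in the 5 libraries (17090, of which 15 were mitochondrial and 1424 unannotated loci) entered edgeR 4.0.16 under R 4.3.3, with TMM scaling and a robust quasi-likelihood F-test. The p-values, for either direction, were Benjamini-Hochberg adjusted over these features. A standard error is the absolute log2 fold change over the square root of F. CPM use TMM-scaled totals of all 21 libraries. Gene positions, GC content and lengths come from GENCODE 29 on GRCh38, which may not be the authors' annotation, and symbols were matched for 24852 of 37637 features. Promoters come from RefSeq. Further elements were searched in the same windows. The cyclic AMP element TGACGTCA was found before 2 of 13 cAMP and CREB targets (2.03% of all genes). The xenobiotic element TNGCGTG was found before 3 of 9 AHR pathway genes (5.54%), and the forkhead element TGTTTAC before 1 of 11 FOXO targets (3.66%). No marker gene was among these matches. Some genes that the rule names are not reported here by name, and they stay in the counts. Overlapping, antisense and near-identical genes have uncertain counts.

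Genes named were the 4 given markers, the 12 largest called rises and falls with a mean of at least 5 CPM and no overlap, up to 4 called members per list by size, and all members of 6 lists. Others (such as ATF4, CHAC1, ALB, SLC2A1, MDM2 and genes that complete a count of 5 or fewer) were named after their values were seen. When counts were simulated for 17090 features with 50 changed at each size, the test recovered 33 at 1.5-fold, 32 at 2-fold, 48 at 4-fold and 44 at 8-fold, with 15 false calls among 16491 unchanged features. The simulated 1.5- and 4-fold changes were all rises and the 2- and 8-fold ones all falls. Few simulated features changed and no GC trend was put in, while 69.1% of features were called in the data. These rates therefore need not hold for the data. Alternatives were DESeq2 1.42.0 size factors, its Wald test, limma-voom (limma 3.58.1), a mean of at least 5 CPM or no filter, the third 1000 µM library added, all 21 libraries in 1 fit, mitochondrial features left out before scaling, a replicate block, each library left out and, chosen after seeing the data, an offset for GC content and length. Intervals and floors (3 counts) cover counting error alone, as PCR copies are counted without molecular identifiers.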

Additional observations from a re-analysis of the deposited data

Results flagged for a closer look

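The third 1000 µM library was not in the comparison, and in it all 4 marker genes stood above all 3 untreated controls. IGFBP1 held 4065 CPM there, against 98.1 to 114.9 in the controls. CYP1A1 held 80.8 CPM against 2.57 to 3.12, and G6PC1 7.55 against 0.389 to 0.614. PPARGC1A held 62.7 CPM against 16.4 to 19.4. This library and the controls both had more than 10% of mitochondrial counts, and the part of that share in these values was not tested.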

How the results depend on the processing

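The number of features called was 11801 and ran from 8557 with the third 1000 µM library added to 12423 without a filter, and from 10205 to 12157 with each library left out. DESeq2's Wald test called 10656 and limma-voom 11816. Features changed at least 2-fold numbered 805 higher and 967 lower at a mean of at least 5 CPM, which tests fewer features (11066). With the GC and length offset 1302 were lower. Among 226 named genes the alternatives gave 3368 values, of which 3255 kept direction and call, 105 lost the call and 8 turned. Those that turned were, with the GC and length offset, ATR (-0.04), PDE4D (-0.19), MLXIPL (0.20), APOB (-0.02), CREB3L3 (0.10), CCNG1 (-0.09) and POR (0.19), and with the third 1000 µM library CREB3L3 (0.12). The cause was not tested. Deviations of same-numbered replicates from their group means had r of -0.036 and -0.051. With 2 libraries at 1000 µM both values use the same deviations, so they cannot decide whether the numbers pair the libraries. With a replicate block 11918 features were called, 1803 higher and 2076 lower by at least 2-fold, and 382 list members in place of 368. Of the 226 named genes 224 kept direction and call, and MTND2P28 and UGT1A6 lost theirs. With 2 libraries at 1000 µM, small changes and features of few counts are the least certain.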
